A study of Mus musculus with 8 samples.

Results

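The 9 genes described here are the imprinted growth regulators H19, Igf2, Igf2r, Grb10, Phlda2, Dlk1, Meg3, Peg3 and Plagl1. They were chosen by name. All 9 were found among the 53801 genes of the count table, and 8 of them were matched by symbol among the 25485 genes of the authors' size-factor table. Igf2 was matched in the count table only. An imprinted gene is expressed from 1 parental copy, and the choice is set by DNA methylation laid down in the germ line. The counts do not separate the maternal from the paternal copy, so they give the level of each gene and nothing on its imprint.

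Messenger RNA was sequenced from Lgr5-GFP+ stem cells from the intestine of 8 mice. All 8 mice carried the Lgr5-EGFP-IRES-CreERT2 driver, which expresses a tamoxifen-inducible Cre in Lgr5+ stem cells, and an activated β-catenin allele that lacks exon 3 (β-catGOF). In 4 mice both Mll1 alleles were floxed (labelled β-catGOF; Mll1-/-, here Mll1-/-) and in the other 4 mice 1 allele was (labelled β-catGOF; Mll1+/-, here Mll1+/-). The controls therefore also carried the β-catenin mutation and the loss of 1 Mll1 copy. Tamoxifen was given to mice aged 4 to 6 weeks at 50 mg/kg on 3 days, and 300 Lgr5-GFP+ cells per mouse were sorted 10 days after induction, after staining for EpCAM, CD45, CD24 and dead cells. Recombination in this model does not reach every crypt, so a sort for GFP can hold non-recombined cells. Each library is 1 mouse, and in sorted bulk cells a smaller share of expressing cells and less RNA per cell cannot be told apart.

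Mll1, encoded by Kmt2a, methylates lysine 4 of histone H3 and binds CpG-rich DNA through its CXXC domain. The comparison of genotypes asks how the loss of its second copy changes transcripts of stem cells with activated Wnt signalling. Insulin-like growth factor 2 (Igf2) drives growth in the embryo, Igf2r removes it by carrying it to lysosomes, and the noncoding RNA H19 lies beside Igf2 and shares its enhancers. Grb10 is an adaptor that restrains the insulin and IGF1 receptors, Phlda2 restrains growth of the placenta, Dlk1 is a transmembrane ligand related to those of Notch, Meg3 is the noncoding RNA beside it, and Peg3 and Plagl1 are zinc finger proteins. Many of these genes are known to be abundant in embryonic and mesenchymal tissues and to fall after birth, and loss of imprinting of Igf2 is known from colorectal tumours.

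The libraries held 14468751 to 16847793 counts on genes, and mitochondrial genes took 17.1 to 30.1% of them. The library of J_7135 stood apart, with a Spearman correlation of 0.902 to its nearest library where the others reached 0.931 or more. Kmt2a was not lower in the 4 libraries labelled Mll1-/- (53.3 to 78.2 CPM) than in those labelled Mll1+/- (48.8 to 64.7 CPM), with an edgeR log2 fold change of 0.24 (SE 0.17, adjusted p = 0.71). Counts over the whole gene do not show whether the floxed exons were missing, so the genotypes are used here as labelled and each direction rests on these labels. All 13 crypt epithelial markers were counted in every library, among them Epcam with 15650 to 29306 counts. Their summed level did not overlap between the genotypes, at 13705 to 21121 CPM in Mll1-/- and 25146 to 29667 CPM in Mll1+/- libraries, and the 12 markers other than Olfm4 summed to 5654 to 6739 CPM and 5916 to 7074 CPM, which overlapped. Of the 13, 0 passed the adjusted threshold of the edgeR test, 5 had an unadjusted p under 0.05 with a higher level in Mll1-/- and 2 with a lower one, and the genotypes did not overlap for 5. Over all genes tested, 5.4% and 3.75% had such a p in these directions, and 6.27% had genotypes without overlap. Of the 13 markers of fibroblasts and mesenchyme only Vim and Pdgfrb passed the filter on low counts. The summed level of the 12 markers other than Vim was at most 6.74 CPM in Mll1-/- and at most 4.63 CPM in Mll1+/- libraries, while Vim itself had 818 to 1958 counts in Mll1-/- and 3 to 68 counts in Mll1+/- libraries. The 18 enteroendocrine markers summed to 7.17 to 14.6 CPM in Mll1-/- and 12.8 to 64.1 CPM in Mll1+/- libraries, and the part of such cells in the values below was not tested.

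Promoter windows are shown for 4 members because they include the members with the highest levels per length (Igf2r and Phlda2) and low ones (Grb10 and Dlk1) and differ in CpG content. Neither the methylation of these CpGs nor binding of Mll1 was measured in these libraries. Each window covers 250 bases before to 50 bases after a transcription start in RefSeq (GRCm38.p6), 5′ to 3′ on the strand of the gene, with every CpG in capitals. The windows are chr17:12769657-12769956 on the minus strand for Igf2r, chr7:143502475-143502774 on the minus strand for Phlda2, chr11:12037371-12037670 on the minus strand for the upstream start of Grb10, and chr12:109452573-109452872 on the plus strand for Dlk1.
Igf2r: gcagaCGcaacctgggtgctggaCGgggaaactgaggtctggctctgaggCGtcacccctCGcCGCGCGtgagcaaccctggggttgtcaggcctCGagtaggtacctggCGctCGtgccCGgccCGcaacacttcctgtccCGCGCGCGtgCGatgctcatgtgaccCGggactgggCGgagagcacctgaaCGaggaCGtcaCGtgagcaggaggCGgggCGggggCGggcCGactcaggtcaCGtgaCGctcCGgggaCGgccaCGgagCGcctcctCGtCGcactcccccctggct
Phlda2: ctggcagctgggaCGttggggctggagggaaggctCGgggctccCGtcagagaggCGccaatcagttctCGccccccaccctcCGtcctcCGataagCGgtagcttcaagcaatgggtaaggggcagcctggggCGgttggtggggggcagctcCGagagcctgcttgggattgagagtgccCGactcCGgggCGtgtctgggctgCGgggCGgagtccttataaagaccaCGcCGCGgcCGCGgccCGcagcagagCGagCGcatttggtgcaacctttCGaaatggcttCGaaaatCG
Grb10: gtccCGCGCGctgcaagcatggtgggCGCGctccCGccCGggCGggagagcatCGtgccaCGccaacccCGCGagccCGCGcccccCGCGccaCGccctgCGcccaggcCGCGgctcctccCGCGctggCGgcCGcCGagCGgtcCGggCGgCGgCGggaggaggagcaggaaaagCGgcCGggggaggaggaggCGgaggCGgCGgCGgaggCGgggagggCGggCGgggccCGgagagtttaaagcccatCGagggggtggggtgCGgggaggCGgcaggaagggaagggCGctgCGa
Dlk1: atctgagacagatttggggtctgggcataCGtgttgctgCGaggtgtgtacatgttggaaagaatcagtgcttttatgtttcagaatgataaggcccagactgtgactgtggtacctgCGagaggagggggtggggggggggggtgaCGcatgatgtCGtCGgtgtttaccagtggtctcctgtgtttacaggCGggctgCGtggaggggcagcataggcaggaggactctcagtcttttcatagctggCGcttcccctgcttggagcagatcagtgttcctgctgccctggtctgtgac

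RefSeq gave 13 windows for 8 of the 9 members. The window of Igf2r held 34 CpGs, and 7.73% of all 32851 windows held at least as many. The windows of Phlda2 and Plagl1 held 26 each, a number reached by 16.9% of all windows, and the upstream window of Grb10 held 45, reached by 1.93%. The window of Dlk1 held 9, those of Peg3 and of the upstream Meg3 start 13 each, and the 4 windows of Igf2 held 2, 14, 24 and 7, where the median of all windows was 7. The second windows of Grb10 and Meg3 held 9 and 1. The window with the most CpGs thus belonged to Grb10, which had at most 49 counts in any library, and not to Igf2r, the member with the most reads. Counts are per gene, so the reads of Grb10 cannot be assigned to either of its starts. The letters TATAAA, searched on both strands, were found in the window of Phlda2 and in the upstream window of Meg3, and in 13.6% of all windows. CTTTGAT, the core letters bound by the TCF/LEF partners of β-catenin, was in none of the 13 windows and in 3.73% of all windows, which says only that these letters are not in these 300 bases.

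An exon of H19 also holds a microRNA precursor, Mir675, on the minus strand of chromosome 7 from 142577064 to 142577147 (GRCm38.p6), so that reads over these bases belong to both genes. Its mature products are given because they are the known processed output of H19, with the seed, bases 2 to 8, in capitals.
mmu-miR-675-5p: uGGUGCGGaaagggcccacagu
mmu-miR-675-3p: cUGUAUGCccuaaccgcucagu

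H19 (ENSMUSG00000000031) lies on the minus strand of chromosome 7 from 142575529 to 142578143 (GRCm38) and is annotated as a noncoding RNA. It had 8 counts in J_7075, 91 in J_7096, 0 in J_7135 and 0 in J_7136 among the Mll1-/- libraries, and 0 counts in each of the 4 Mll1+/- libraries. The gene was thus seen in 2 libraries of 8, both labelled Mll1-/-, and the other 2 libraries of that genotype lay with the controls at 0. Its mean of 1.43 ± 2.56 CPM (SD, n = 4) in Mll1-/- was at least 6.96-fold higher than the floor of 3 counts per library in Mll1+/-, a mean of 0.206 CPM. This bound rested on J_7096, and without that library the mean of 0.157 CPM was below the floor. The exact two-sided permutation test of the mean log2(CPM + 0.5) gave a difference of 1.12 with p = 0.43, where the smallest p that the 70 assignments of 4 and 4 libraries can give is 0.029. Of the exonic bases of H19, 9.15% are shared with other annotated genes, whose reads were left out of the counts.

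Igf2 (ENSMUSG00000048583), the growth factor gene, lies 88.7 kb from the start of H19, on the minus strand of chromosome 7 from 142650766 to 142666816. It had 0 counts in all 8 libraries, and a count of 0 allows a level of up to 0.162 to 0.240 CPM, depending on the library, for counting error only. Of its 5723 exonic bases 64.5% are shared with other annotated genes, most of them with the overlapping gene Gm49394, and reads over more than 1 gene were not counted. Gm49394 also had 0 counts in every library, so the floor applies to the unshared bases of Igf2. No difference between the genotypes was detectable at this depth.

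Igf2r (ENSMUSG00000023830), the receptor that clears Igf2, lies on the minus strand of chromosome 17 from 12682406 to 12769664 and shares no exonic base with another gene. It was the member with the most reads, with 553, 627, 315 and 611 counts in the Mll1-/- libraries J_7075, J_7096, J_7135 and J_7136 and 645, 474, 405 and 337 counts in the Mll1+/- libraries J_7079, J_7100, J_7134 and J_7139. The genotypes overlapped, and J_7135 was the lowest of all. The level was 31.4 ± 10.1 CPM in Mll1-/- and 31.5 ± 7.04 CPM in Mll1+/- (SD, n = 4 each). The edgeR log2 fold change was -0.00 (SE 0.28, adjusted p = 1.00), and its 95% interval ran from -0.64 to 0.64. A change of less than about that size in either direction was not detectable. The interval is not adjusted for the number of genes, so larger changes could also miss the adjusted threshold. Without J_7135 the log2 fold change was 0.20 (edgeR, adjusted p = 0.86). The differences in mean log2(CPM + 0.5) within the 2 runs of library numbers were -0.06 and -0.02.

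Grb10 (ENSMUSG00000020176), the adaptor that restrains insulin and IGF1 receptor signalling, lies on the minus strand of chromosome 11 from 11930508 to 12038683. It had 1, 2, 0 and 0 counts in the Mll1-/- libraries J_7075, J_7096, J_7135 and J_7136, and 1 count in J_7079, 19 in J_7100, 1 in J_7134 and 49 in J_7139 among the Mll1+/- libraries. Every Mll1-/- library was under the floor of 3 counts, and so were 2 of the 4 Mll1+/- libraries, so the genotypes overlapped. The mean was 0.0436 ± 0.0554 CPM in Mll1-/- and 1.16 ± 1.46 CPM in Mll1+/- (SD, n = 4 each). The difference in mean log2(CPM + 0.5) was -1.16 (exact two-sided permutation test, p = 0.11), with -0.79 and -1.54 within the 2 runs of library numbers. Leaving out J_7139 left a difference of -0.64 (exact permutation test, p = 0.11).

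Phlda2 (ENSMUSG00000010760), a pleckstrin homology domain protein that limits placental growth, lies on the minus strand of chromosome 7 from 143501545 to 143503150, 925 kb from H19 in the neighbouring imprinted domain. It had 90 counts in J_7075, 30 in J_7096, 35 in J_7135 and 65 in J_7136, and 10, 20, 7 and 51 counts in the Mll1+/- libraries J_7079, J_7100, J_7134 and J_7139. Each Mll1-/- library lay above 3 of the 4 Mll1+/- libraries, and J_7139 overlapped the Mll1-/- range. How many of all genes show this pattern was not counted. The level was 3.29 ± 1.76 CPM in Mll1-/- and 1.46 ± 1.28 CPM in Mll1+/- (SD, n = 4 each). The edgeR log2 fold change was 1.16 (SE 0.67, 95% interval -0.35 to 2.68), with an unadjusted p of 0.12 and an adjusted p of 0.65. The exact permutation test gave a difference of 1.03 with p = 0.11, and the differences within the 2 runs of library numbers were 1.32 and 0.75. With 1 library left out, the log2 fold change ran from 0.83 to 1.94. It was 0.83 without J_7075 (edgeR, unadjusted p = 0.29, adjusted p = 0.76). It was 1.94 without J_7139, the highest Mll1+/- library (edgeR, unadjusted p = 0.017, adjusted p = 0.61). Phlda2 thus did not pass the threshold with all libraries or with any 1 left out.

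Dlk1 (ENSMUSG00000040856) lies on the plus strand of chromosome 12 from 109452823 to 109463336, and Meg3 (ENSMUSG00000021268) 88.2 kb from its start, from 109541001 to 109571726 on the same strand. Dlk1 had 1, 5, 8 and 1 counts in the Mll1-/- libraries J_7075, J_7096, J_7135 and J_7136 and 1, 0, 1 and 2 counts in the Mll1+/- libraries J_7079, J_7100, J_7134 and J_7139. Meg3 had 4, 8, 22 and 2 counts in the same Mll1-/- libraries and 2, 1, 5 and 4 counts in the Mll1+/- libraries. Both genes had their highest count in J_7135 and their second highest in J_7096, and both genotypes overlapped for each. The difference in mean log2(CPM + 0.5) was 0.30 for Dlk1 (exact permutation test, p = 0.26) and 0.41 for Meg3 (exact permutation test, p = 0.29). Without J_7135 these differences were 0.16 and 0.13. Of the exonic bases of Meg3, 8.29% are shared with other genes, most of them with Gm26906 on the opposite strand, and Dlk1 shares none.

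Peg3 (ENSMUSG00000002265), a zinc finger protein expressed from the paternal copy, lies on the minus strand of chromosome 7 from 6703892 to 6730431. It had 11 counts in J_7075, 25 in J_7096, 1 in J_7135 and 98 in J_7136, and 19, 37, 28 and 20 counts in the Mll1+/- libraries J_7079, J_7100, J_7134 and J_7139. The Mll1-/- libraries held both the highest and the lowest value, and the Mll1+/- libraries lay between them. The means were 2.14 ± 2.91 CPM in Mll1-/- and 1.81 ± 0.71 CPM in Mll1+/- (SD, n = 4 each). The edgeR log2 fold change was 0.24 (SE 1.00, 95% interval -2.01 to 2.48, adjusted p = 0.96), whereas the difference in mean log2(CPM + 0.5) was -0.38 (exact permutation test, p = 0.66), so the 2 measures differed in sign. Without J_7136 the log2 fold change was -1.33 (edgeR, adjusted p = 0.72) and without J_7135 it was 0.64 (edgeR, adjusted p = 0.88).

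Plagl1 (ENSMUSG00000019817), a zinc finger transcription factor that is known to act on other imprinted genes, lies on the plus strand of chromosome 10 from 13060504 to 13131694. It had 1 count in J_7075, 76 in J_7096, 0 in J_7135 and 18 in J_7136, and 7, 6, 0 and 2 counts in the Mll1+/- libraries J_7079, J_7100, J_7134 and J_7139. Its counts lay mainly in J_7096, the library that also held most of the H19 counts, and the genotypes overlapped at 0. The difference in mean log2(CPM + 0.5) was 0.78 (exact permutation test, p = 0.46) and fell to 0.11 without J_7096 (exact permutation test, p = 0.91).

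**Figure D1:**
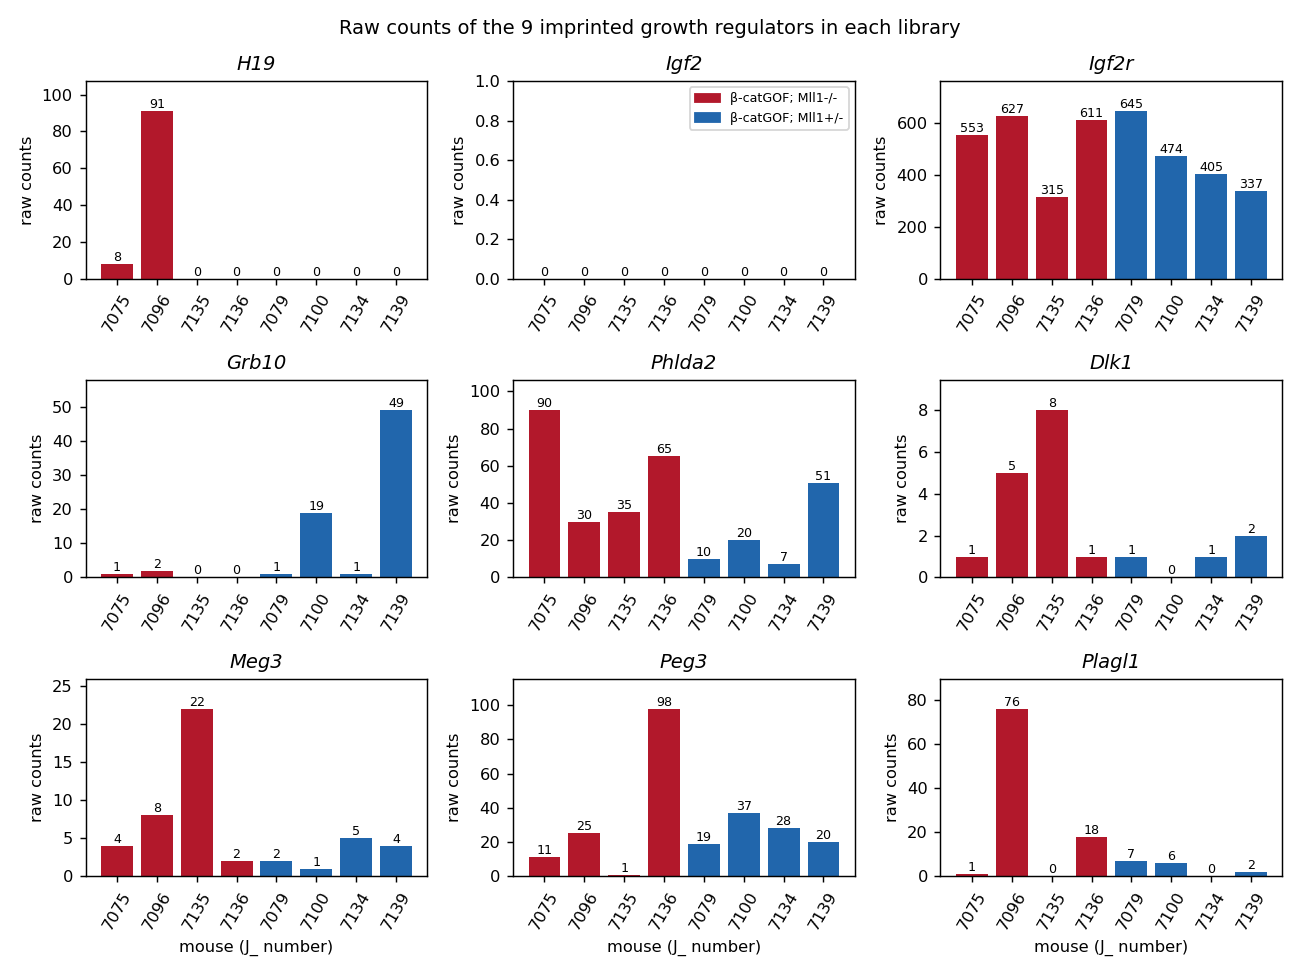
Raw counts (vertical axis, linear and with its own range in each panel) of the 9 genes in the 8 libraries (horizontal axis, mouse number), with Mll1-/- libraries in red and Mll1+/- libraries in blue and the count above each bar. H19 is at 91 counts in J_7096 and at 0 in 6 libraries, Igf2 is at 0 in all, and Igf2r lies between 315 and 645 in every library.

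None of the members that could be tested passed the threshold, an adjusted p under 0.1. With edgeR's quasi-likelihood test and Benjamini-Hochberg adjustment over 16445 genes, 14 genes passed (0.0851% of those tested), and of the 9 members 3 (Igf2r, Peg3 and Phlda2) had enough counts for the test. Of these 3, 0 passed the adjusted threshold, 0 had an unadjusted p under 0.05 (9.15% of all genes tested did), and 0 had genotypes without overlap (6.27% of all genes tested did). DESeq2 and limma-voom also gave 0 members past the adjusted threshold. With limma-voom Phlda2 had an unadjusted p of 0.047, and 1751 of the 16445 genes tested had one under 0.05. When all genes with a count were tested, 8 members entered, 0 passed the adjusted threshold, and H19 and Grb10 had unadjusted edgeR p-values of 0.0078 and 0.0091 (adjusted p = 0.57 for both). In that fit 3359 of the 40036 genes tested had an unadjusted p under 0.05. The median log2 fold change of the 3 tested members was 0.24, beside 0.01 for all genes tested. The exact permutation test was run for the 8 members with a count, and its p-values lay between 0.11 and 0.89.

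Levels were compared between the genes per length, in CPM per kb of exons over the 8 libraries. Igf2r had 3.33 ± 0.85 CPM per kb (SD, n = 8) and ranked 8851 of the 40036 genes with a count. Phlda2 followed with 2.12 ± 1.54 CPM per kb (rank 10801), and Igf2r was above it in 6 of 8 libraries, so this pair overlapped. The other members with a count were lower in the mean, with H19 at 0.291 ± 0.748, Peg3 at 0.148 ± 0.148, Plagl1 at 0.105 ± 0.191 and Grb10 at 0.0660 ± 0.124 CPM per kb. Within this group the order was not stable across libraries, since H19 was above Peg3 in 2 of 8 libraries and Plagl1 above Grb10 in 4 of 8. Dlk1 with 0.0246 ± 0.0258 and Meg3 with 0.0198 ± 0.0200 CPM per kb were the lowest members with a count, and Dlk1 was above Meg3 in 5 of 8 libraries.

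**Figure D2:**
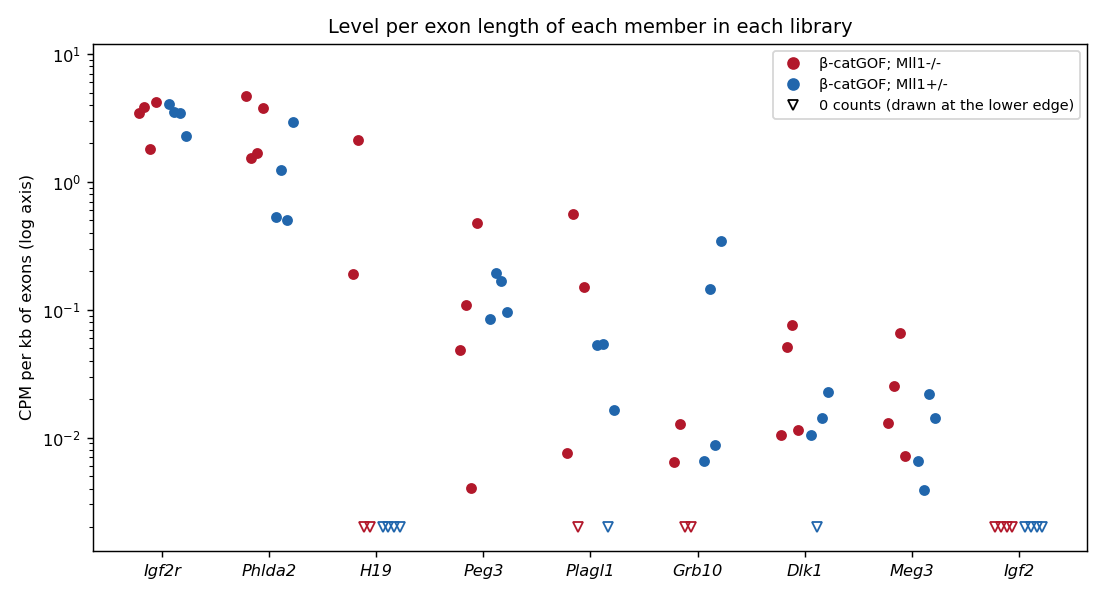
Level of each member in CPM per kb of exons (vertical log axis) in each Mll1-/- (red) and Mll1+/- (blue) library, ordered by the mean over the 8 libraries, with open triangles for libraries at 0 counts. Igf2r and Phlda2 lie at 0.500 CPM per kb or more in every library, and the other members spread over 1 or more orders of magnitude or lie at 0.

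The low members were unevenly spread over the mice. The library with the most counts held 91.9% of all counts of H19, 69.1% of those of Plagl1 and 67.1% of those of Grb10. It held 45.8% for Meg3, 41.0% for Peg3 and 29.2% for Phlda2, and the highest library was not the same for these genes (J_7096 for H19 and Plagl1, J_7139 for Grb10, J_7135 for Meg3, J_7136 for Peg3 and J_7075 for Phlda2). For the 10486 genes with 20 to 400 counts in all, the median of this share was 31.5% and the quartiles were 23.1% and 45.3%. Of the 6 members in that range, 5 were above the median, which is a description of these libraries and not a test. Igf2r had the lowest share of the members, 16.3%.

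The neighbours of the members in the genome were described from a list of 29 genes of the same imprinted domains, of which 28 were found and 13 were tested. Of these 13, 0 passed the adjusted threshold of the edgeR test, and 3 had an unadjusted p under 0.05, where 9.15% of all genes tested did. For 2 of the 13, Ddc and Cd81, the genotypes did not overlap (6.27% of all genes tested). The median log2 fold change of the 13 was 0.29, beside 0.01 for all genes tested. Ddc, the decarboxylase gene beside Grb10, was at 77.2 ± 9.36 CPM in Mll1-/- and 53.5 ± 9.65 CPM in Mll1+/- (SD, n = 4 each), a log2 fold change of 0.53 (edgeR, adjusted p = 0.40). Cd81, a tetraspanin gene between H19 and Phlda2 and the most abundant gene of the list, was at 583 ± 93.9 and 763 ± 112 CPM (log2 fold change -0.39, edgeR adjusted p = 0.49), and Tssc4 beside it had a log2 fold change of 0.97 (edgeR, adjusted p = 0.54), with its highest value in J_7135.

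Some of the listed neighbours on chromosome 7 had higher levels per length than the members there, and others such as Ins2, at most 3 counts in any library, did not. Between H19 and Phlda2, Ascl2, a transcription factor of intestinal stem cells, had a mean of 57.2 CPM per kb and Kcnq1, a potassium channel gene, 24.8 CPM per kb, beside 0.291 for H19, 0 for Igf2 and 2.12 for Phlda2. Kcnq1ot1, the antisense noncoding RNA of the Phlda2 domain, had 1559 to 3583 counts and 1.70 CPM per kb, but it runs through introns of Kcnq1 and the counting did not use the strand, so its reads cannot be told apart from unspliced Kcnq1 RNA. Cdkn1c, an inhibitor of cyclin-dependent kinases in the same domain that was named after its values were seen, had 1 to 56 counts and a log2 fold change of -0.94 (edgeR, adjusted p = 0.79), and 30.7% of its exonic bases are shared with another gene. Beside Igf2r, the antisense RNA Airn had 54 to 190 counts and 1.90 CPM per kb, again without strand. In the Dlk1 domain the other listed genes Rian, Mirg, Rtl1, Dio3 and Begain had at most 8 counts in any library.

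**Figure D3:**
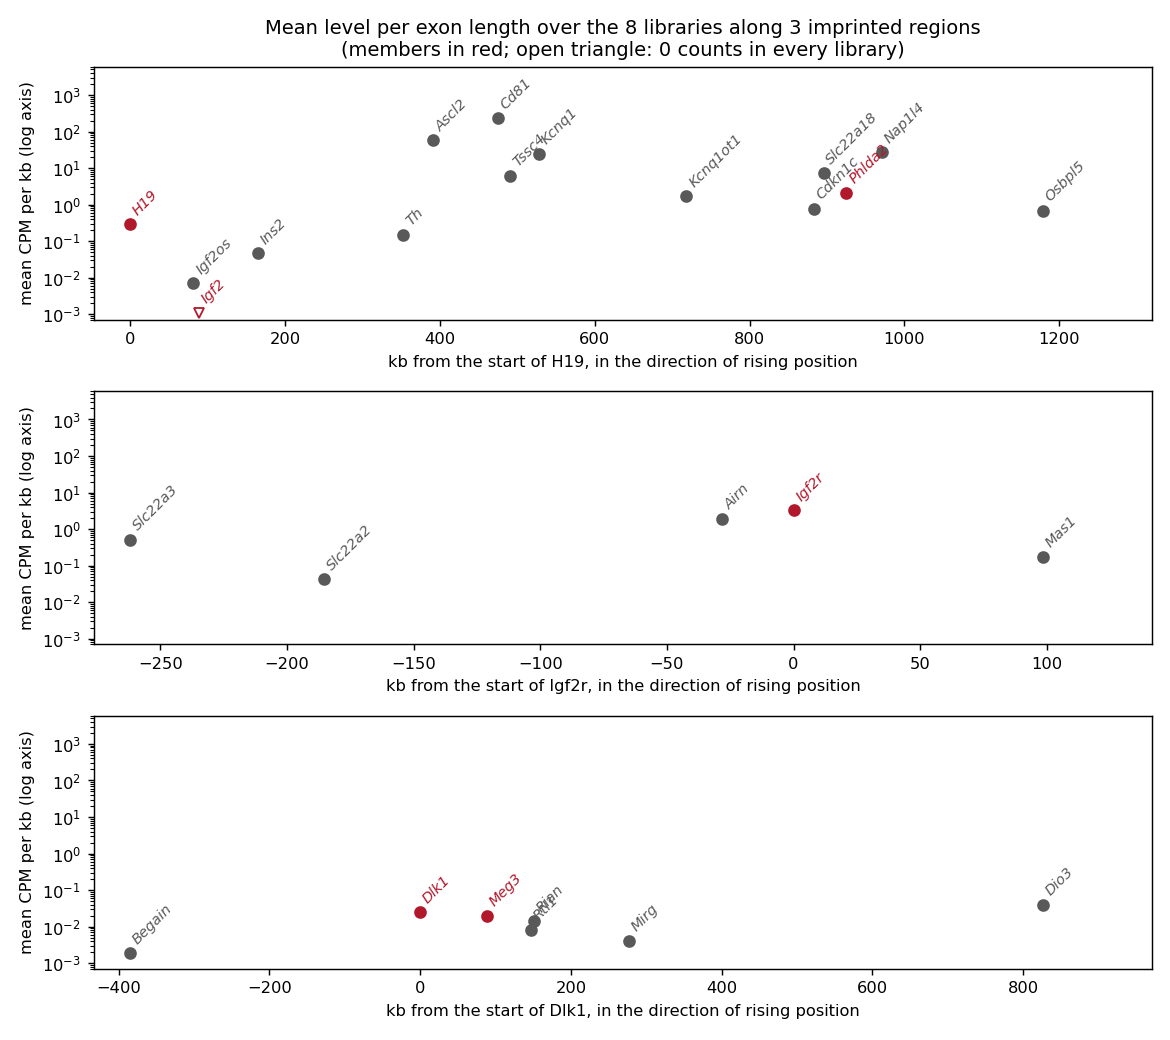
Mean level over the 8 libraries in CPM per kb of exons (vertical log axis) against the distance in kb from the start of H19, Igf2r or Dlk1 (horizontal axis), with members in red, listed neighbours in grey and an open triangle for 0 counts in every library. Genes between H19 and Phlda2 such as Ascl2 (57.2 CPM per kb) lie far above both, while no gene of the Dlk1 domain lies above Dio3 at 0.0394 CPM per kb.

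The pathway through which several members act was described with 35 genes of IGF and insulin signalling, of which 26 were tested and 0 passed the adjusted threshold of the edgeR test. The receptors that Igf2 and Grb10 act on had 2.71 CPM per kb (Igf1r) and 3.44 CPM per kb (Insr), beside 3.33 CPM per kb for Igf2r. Igf1, the other ligand, had at most 7 counts in any library. An unadjusted p under 0.05 was found for 3 genes that were higher in Mll1-/- (Mtor, Akt1 and Grb7, log2 fold changes 0.74, 0.38 and 0.59) and 1 that was lower (Foxo1, -0.49), where 5.4% and 3.75% of all genes tested had such a p in these directions. Their adjusted p-values in the edgeR test lay between 0.45 and 0.51. The most abundant genes of the list were the binding protein gene Igfbp4, the kinase subunit gene Pik3r1 and the kinase gene Rps6kb1. They had log2 fold changes of 0.29, -0.07 and -0.23 (edgeR, adjusted p = 0.66, 0.93 and 0.71). The median over the 26 genes was 0.08, beside 0.01 for all genes tested.

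Of 48 other genes reported as imprinted in at least some mouse tissues, 29 were tested and 0 passed the adjusted threshold. In this list 4 genes had an unadjusted edgeR p under 0.05 with a higher level in Mll1-/- and 0 with a lower one, where 5.4% and 3.75% of all genes tested had such a p in these directions: Zc3h12c (log2 fold change 1.82), Wars (1.07, with its highest value in J_7135), Inpp5f (0.67) and Peg13 (1.74), at adjusted p-values between 0.36 and 0.53. The abundant genes Pon2, Ube3a and Commd1 had log2 fold changes of -0.25, -0.42 and -0.02 (edgeR, adjusted p = 0.73, 0.73 and 0.98). The median of the 29 was -0.05, beside 0.01 for all genes tested. Of 17 genes listed for the setting or maintenance of imprints, 12 were tested and 0 passed. Dnmt1, the methyltransferase that copies DNA methylation, had a log2 fold change of 0.38 (edgeR, adjusted p = 0.50). It was the only 1 of the 12 with an unadjusted edgeR p under 0.05 (0.031), where 9.15% of all genes tested had such a p. The abundant genes Hells, Trim28 and Arid4b of that list had log2 fold changes of 0.08, 0.21 and 0.17, and its median was 0.13.

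**Figure D4:**
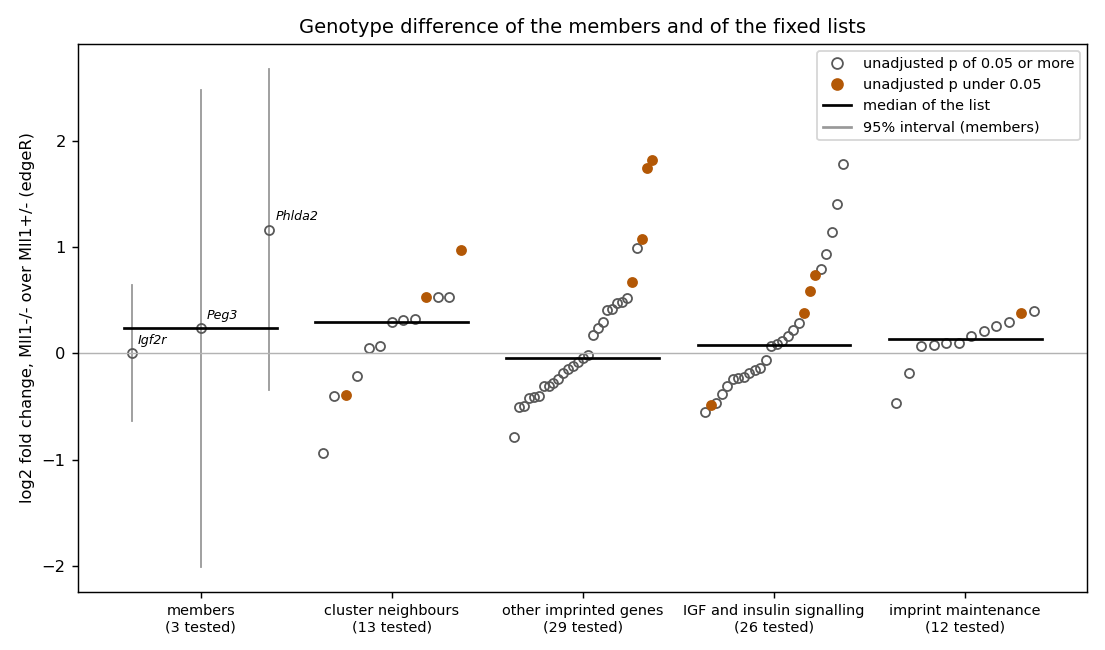
The log2 fold change of Mll1-/- over Mll1+/- (vertical axis, edgeR) for the 3 tested members with their 95% intervals and for the tested genes of the 4 lists, with a bar at each median and filled points for an unadjusted p under 0.05. The interval of Igf2r, from -0.64 to 0.64, is the narrowest of the members, and that of Phlda2 runs from -0.35 to 2.68.

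The genes whose log2 CPM over the 8 libraries was most like that of Phlda2, among the other 16444 tested genes, were Mgll, Alyref and Slc25a12, with Pearson's r of 0.94, 0.93 and 0.93 (Spearman's rho 0.95, 0.88 and 0.98) and r of 0.88, 0.92 and 0.91 without the 2 libraries farthest from the median. For Igf2r they were Gm45555, Prr18 and Gm45091, with r of 0.99, 0.98 and 0.97 (rho 0.90, 0.93 and 0.93) and 0.86, 0.93 and 0.80 without those 2 libraries. These are the highest of 16444 correlations for each gene over 8 libraries, and they are given as a description.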

How the data were processed

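Messenger RNA of 300 sorted cells from each of 8 mice (4 Mll1-/-, 4 Mll1+/-) was amplified with Smart-seq2 and sequenced. The authors mapped the reads with GSNAP (build mm10) and deposited raw counts of uniquely mapped reads per gene of Ensembl release 92 (featureCounts 1.6.3), without strand and without reads over more than 1 gene. The authors also deposited a signal table of counts over a size factor per library (0.811 to 1.17), used only to match symbols. There are no molecular identifiers, so floors cover counting error only.

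Low genes were removed by filterByExpr (minimum count 10, minimum total 15), libraries were scaled by TMM, and genotype was the only term of the test in edgeR 4.0.16 (robust quasi-likelihood, two-sided, Benjamini-Hochberg, R 4.3.3). The threshold, 0.1 on the adjusted p, follows the methods of the study. Members were also compared with exact permutation tests of the mean log2(CPM + 0.5). CPM used TMM-scaled library totals. Alternatives were DESeq2 1.42.0, limma-voom (limma 3.58.1), other scalings, filters and pseudocounts (0.1 and 1), a block of 2 sets of animal numbers, which are also the 2 runs of library numbers, and each library left out. The members and lists were chosen with earlier results of these data known. The 4 lists held imprinted genes, IGF genes and genes for the setting or maintenance of imprints. From each list the text names each gene with an adjusted p under 0.1, then up to 8 with an unadjusted p under 0.05, and the 3 most abundant. Igf1r, Insr, Igf1, Ascl2, Airn, Cdkn1c, Gm49394, Rian, Mirg, Rtl1, Dio3 and Begain were added with their values known. The most similar genes were sought for the most abundant member and for that with the smallest p. The labels call each library a separate mouse. Sequences are from RefSeq (GRCm38.p6).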

Additional observations from a re-analysis of the deposited data

Results flagged for a closer look

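Within a genotype, 1 library lay far from the other 3 for 5 of the 61 groups of 4 libraries examined among the named genes, where chance gives about 1 in 20. H19 was at 5.25 CPM (91 counts) in J_7096, and the other Mll1-/- libraries lay between 0 and 0.471 CPM. In J_7135 Tssc4 was at 30.1 CPM (8.83 to 11.3 CPM in the other Mll1-/- libraries), Kcnq1 at 149 CPM (83.0 to 92.6 CPM) and Wars at 108 CPM (36.5 to 43.3 CPM). Grb7 was at 77.8 CPM in J_7079, and the other Mll1+/- libraries lay between 63.3 and 65.6 CPM.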

How the results depend on the processing

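The number of genes past the adjusted threshold was 14 and moved to 406 with DESeq2's Wald test, 103 with limma-voom, 47 without the filter, 34 with at least 10 counts in every library, 8 with upper quartile scaling and 0 with the block of animal numbers, and lay between 0 and 45 with 1 library left out (45 without J_7135). None of the 1 to 8 members that entered each of the 15 alternatives was past the threshold. Phlda2 stayed above 0 throughout, from 0.83 to 1.94. The log2 fold change of Igf2r lay at 0 and its sign turned: it was 0.0028 with DESeq2 and with DESeq2 size factors, 0.0023 with at least 10 counts, 0.0068 with the block, 0.0037 without the filter and 0.081 with limma-voom, and ran from -0.15 to 0.20 with 1 library left out. Its difference in mean log2(CPM + 0.5) ran from -0.21 to 0.23 with 1 library left out. Peg3 turned to -0.59 with limma-voom and lay between -1.33 and 0.64 with 1 library left out, and its difference in means between -1.06 and 0.16. The cause was not tested. The median log2 fold change of the neighbours (0.29) was 0.05 without the filter and 0.15 to 0.30 with 1 library left out (0.15 without J_7135). That of the other imprinted genes (-0.05) turned to 0.06, 0.05, 0.04 and 0.01 without J_7100, J_7134, J_7139 and J_7096, and that of the IGF list (0.08) to -0.02 with limma-voom and without J_7134, J_7075 or J_7135, and to -0.00 with the block. The permutation differences of the other members kept their sign under the other scale, both pseudocounts and each library left out, and none had a p under 0.05. For H19 the sign could not turn, because every Mll1+/- library was at 0, and its difference fell to 0.32 without J_7096. H19, Igf2, Grb10, Dlk1, Meg3 and Plagl1 were too low for the filter, and for them depth and the spread between 4 mice limit what can be seen. The labels give the genotypes no shared replicate numbers, so the only block was that of the 2 sets of animal numbers.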
